A study of Oryza sativa with 8 samples.

Results

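Homeodomain transcription factors are proteins that bind DNA through a conserved helical fold, and rice uses them to set leaf shape, keep meristems active and adjust growth to stress. The genes described here were those whose array annotation gave a symbol or synonym of HOX, HOS, ROC, KNOS, OSH or WOX followed by a number. They came to 49 genes of 17905 with a probe set of their own, and to 61 probe sets of 57194 on the array. The data came from 8 Affymetrix rice arrays of the 1-colour kind, hybridised with RNA from shoots and leaves of Zhonghua 11 seedlings at the 4-leaf stage. There were 4 groups of 2 arrays. ZH11 normal was the wild type before cold and ZH11 cold the wild type after 24 h in a chamber held constantly at 4 °C, with 14 h of light and 10 h of darkness. OE normal and OE cold were seedlings overexpressing OsTMF in the same cultivar, at the same times, each with line OE-24 as replicate 1 and line OE-29 as replicate 2. The 2 lines were independent, the promoter of the construct is not given in the labels, and the wild-type replicates were independent biological ones. The normal seedlings were sampled before the move, so the chilling itself cannot be told apart from the extra day or from the new surroundings.

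The family falls into classes with different tasks. HD-Zip proteins carry a leucine zipper beside the homeodomain and bind DNA as dimers. Those of class I are mostly tied to responses to water, abscisic acid and growth, those of class II to auxin and light in Arabidopsis, those of class III to leaf polarity and vascular tissue, and those of class IV (the ROC genes) to the epidermis. KNOX genes of class I keep shoot meristem cells undifferentiated, whereas those of class II are expressed more broadly, and WOX genes act in stem cell niches. The measured set held 12 HD-Zip I, 8 HD-Zip II, 5 HD-Zip III, 8 HD-Zip IV, 5 KNOX class I, 4 KNOX class II and 7 WOX genes.

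Values are the deposited probe-set signals, intensities on a linear scale that show no order between different probe sets. Array medians lay between 27.2 and 28.2. A probe set was tested when its mean over the 8 arrays was above 17.65, the 40th percentile of the table. The brightest probe set by that mean stood for a gene that had several. By that rule 35 members were tested and 14 were not, and 4 of the 35 had a mean at or under 17.65 in at least 1 group, namely HOX28, ROC3, WOX4 and WOX9. Of these, ROC3 and WOX4 were above 17.65 only in their cold groups. Their calls for cold are therefore descriptions, though they are kept in the counts below. Changes are given on the scale of log2(signal + 16) with ± as the standard error in limma (2 arrays a group), which understates the change of dim probe sets. A gene was called when its p, adjusted by the Benjamini-Hochberg method over all tested probe sets, was under 0.05. Of the 49 probe sets that stood for a gene, 11 had a suffix (x_at or s_at) that marks probes able to match other transcripts as well, so their signals may mix related genes.

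The labelled tissue was checked against marker genes. Of the leaf markers planned, 6 were found, and CAB1R, RBCS2, PSBO and PSBP gave no entry of their own. The 6 had summed signals of 47410 to 49190 before cold and 23270 to 24420 after, and 4 of the 6 fell in both genotypes. In ZH11 these were LHCP (-3.67), RCABP69 (-3.49) and CAB2R (-3.39) of the light-harvesting antenna and PORB (-3.25) of chlorophyll synthesis. RCA, the Rubisco activase gene, rose by 0.59 in ZH11 and 0.38 in OE, and RBCS, the small subunit of Rubisco, did not pass, with group means of 14440 to 15040. Among 9 flower marker entries 4 were below the level tested, with group means of 5.15 to 9.95 (MADS3, MADS7, MADS8 and MADS13), and the summed signal of that list was 472.8 to 625.8. The other 5 were tested. Of these, 1 MADS2 entry had group means of 302.5 to 425.2 and MADS4 of 60.2 to 77.55. The other MADS2 entry, MADS58 and DL had group means of 18.1 to 41.35. Seed storage markers (9 genes, 4 tested) summed to 1832 to 2009 before cold and 965.5 to 1155 after. In each genotype 1 of the 4 rose (RAG2) and 2 fell (GLB1 and GLUA-2). Much of the sum was GLB1, with mean signals of 1398 and 568.9 in ZH11 and 1400 and 691.8 in OE. Root markers (6 genes) summed to 383.3 to 443.2 before cold and 462.9 to 503.3 after. The part of these shifts in the results below was not tested. In whole shoots and leaves, fewer cells of a type and less RNA per cell cannot be told apart.

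With cold in the wild type, 22 of the 35 tested members rose, 5 fell and 8 did not pass in limma. The share called, 77.1%, was near the 71.0% of all 15858 tested genes called in this comparison. The split by direction was 62.9% higher and 14.3% lower among the tested members, beside 25.8% and 45.2% among all tested genes. The median log2 change was 0.37 over the tested members and -0.18 over all tested genes. At 2-fold or more 5 members rose (HOX22, HOX32, HOX1, ROC6 and HOX2) and 1 fell (HOX4), so most of the rises were modest. In OE 21 rose and 5 fell, beside 67.3% called among all tested genes, 25.6% higher and 41.7% lower, and the median was 0.35 beside -0.14.

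**Figure D1:**
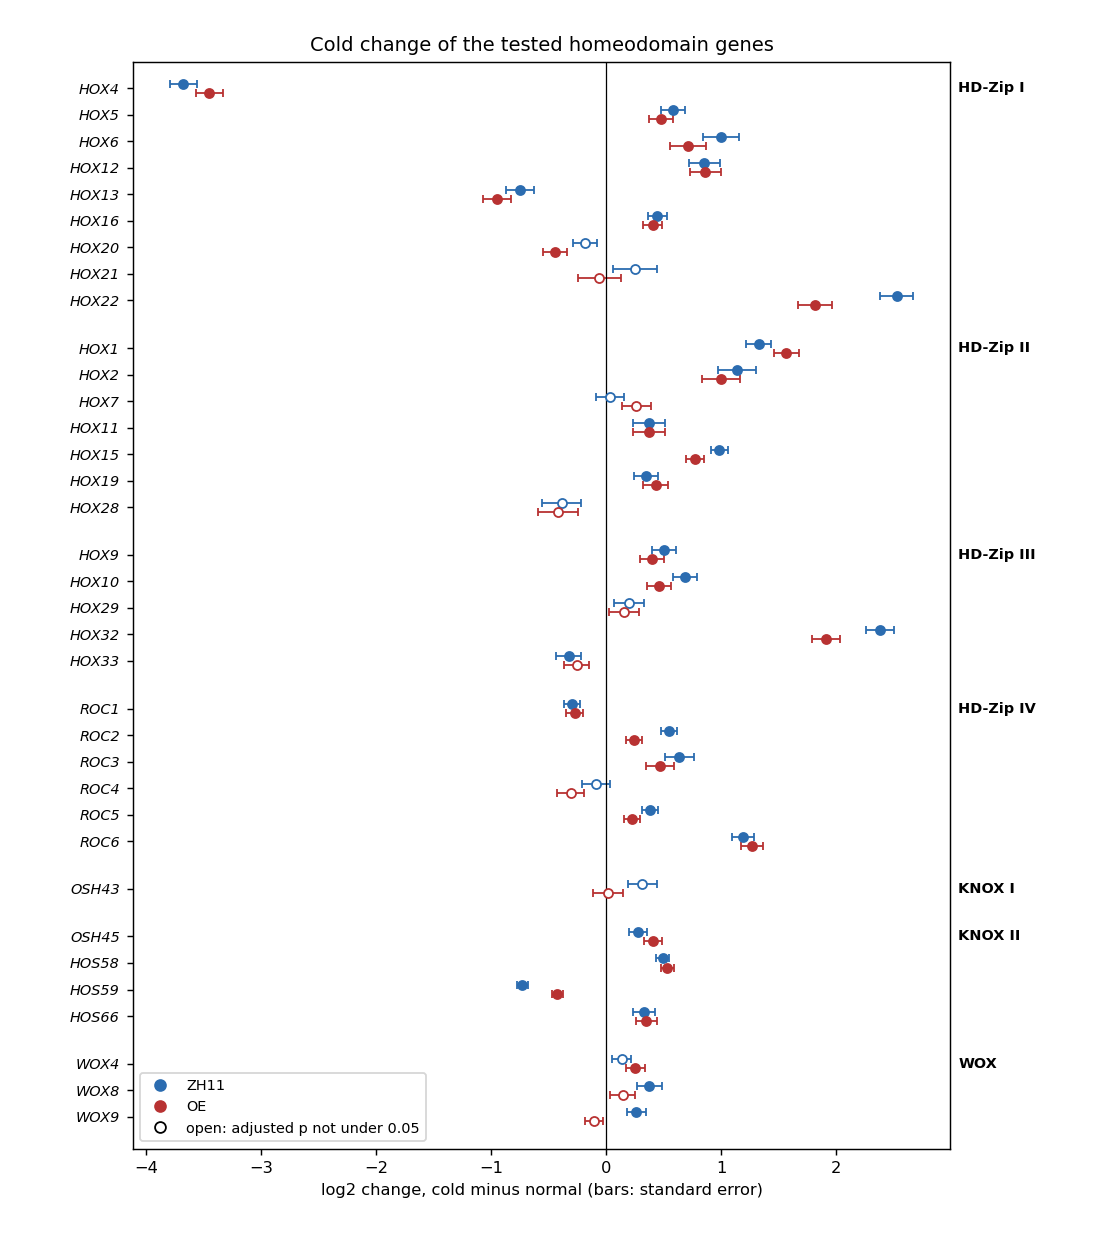
Log2 change on the scale of signal + 16, cold minus normal, for the 35 tested homeodomain genes grouped by class, in ZH11 (blue) and OE (red), with standard errors. Filled points passed an adjusted p of 0.05; HOX4 lies alone at -3.68 and -3.45, and HOX22 and HOX32 lie farthest to the right in both genotypes.

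HOX4 had the largest change of the tested members in both genotypes. It encodes a class I HD-Zip protein whose overproduction in rice gives semi-dwarf plants with altered gibberellin responses. Its signals were 1014 and 1148 in ZH11 normal, 70.4 and 68.8 in ZH11 cold, 987 and 989 in OE normal, and 87.0 and 66.0 in OE cold. The cold arrays were far below the normal ones in both genotypes, with no overlap. The fall was -3.68 ± 0.12 in ZH11, 12.8-fold on the log2(signal + 16) scale (adjusted p = 3.19e-09), and -3.45 ± 0.12 in OE, 10.9-fold (adjusted p = 4.8e-09). HOX4 did not pass between genotypes before cold (-0.13, adjusted p = 0.881), after cold (0.10, adjusted p = 0.6) or in the interaction, which subtracts the ZH11 cold change from the OE one (0.23 ± 0.16, adjusted p = 0.587). The value after cold turned to -0.06 without OE cold replicate 1, the array with the higher of the OE cold signals.

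The other class I genes went in both directions. Of 12 genes 9 were tested, and in ZH11 5 rose, 2 fell and 2 did not pass. HOX22, which is induced by drought and abscisic acid in rice, had the largest rise among the tested members in ZH11 on this scale. HOX32 had the larger rise in OE on this scale, though not with 64 added (1.51 against 1.67) or without OE cold replicate 2 (1.962 against 1.996). In ZH11 HOX32 was ahead with 1 added (2.592 against 2.586) and without ZH11 normal replicate 2 (2.43 against 2.32). The HOX22 signals were 339 and 250 in ZH11 normal, 1807 and 1702 in ZH11 cold, 287 and 311 in OE normal, and 1240 and 963 in OE cold. Every cold array lay above every normal one, and the OE cold arrays lay below the ZH11 cold ones. The rise was 2.53 ± 0.14 in ZH11, 5.76-fold (adjusted p = 1.43e-07), and 1.82 ± 0.14 in OE, 3.52-fold (adjusted p = 1.78e-06).

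HOX6 had signals of 176 and 154 in ZH11 normal, 351 and 337 in ZH11 cold, 122 and 155 in OE normal, and 280 and 199 in OE cold. It rose by 0.998 ± 0.16 in ZH11 (adjusted p = 0.000269) and by 0.71 ± 0.16 in OE (adjusted p = 0.00282). On the scale with 16 added the wild-type rise is just under 2-fold, and with 1 added it is 1.06 on the log2 scale. The cold groups did not overlap the normal groups, and the OE cold arrays differed from each other more than the ZH11 cold ones. HOX12, which in rice acts on panicle exsertion through a gibberellin-inactivating enzyme, rose from a low mean signal of 34.5 to 75.2 in ZH11 and from 27 to 62.7 in OE, by 0.85 and 0.86. HOX5 rose by 0.58 and 0.48, and HOX16 by 0.45 and 0.40.

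HOX13 was the class I gene that fell next after HOX4. Its signals were 506 and 491 in ZH11 normal, 291 and 288 in ZH11 cold, 469 and 584 in OE normal, and 295 and 235 in OE cold. The 2 treatments were separate in each genotype, with falls of -0.75 ± 0.12 in ZH11 (adjusted p = 0.000387) and -0.95 ± 0.12 in OE (adjusted p = 7.83e-05). HOX20 did not pass in ZH11 (-0.18, adjusted p = 0.147) and fell in OE (-0.44, adjusted p = 0.00354), a difference between genotypes that did not pass itself (interaction -0.26, adjusted p = 0.455). HOX21 passed in neither genotype for cold, at 0.25 and -0.06. HOX24, a close relative of HOX22, was too dim to be tested. Its signals were 9.1 and 8.6 in ZH11 normal, 28.5 and 23.6 in ZH11 cold, 8.6 and 10.0 in OE normal, and 19.8 and 28.7 in OE cold. All 4 cold arrays were above all 4 normal ones, at levels around the array medians or below.

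**Figure D2:**
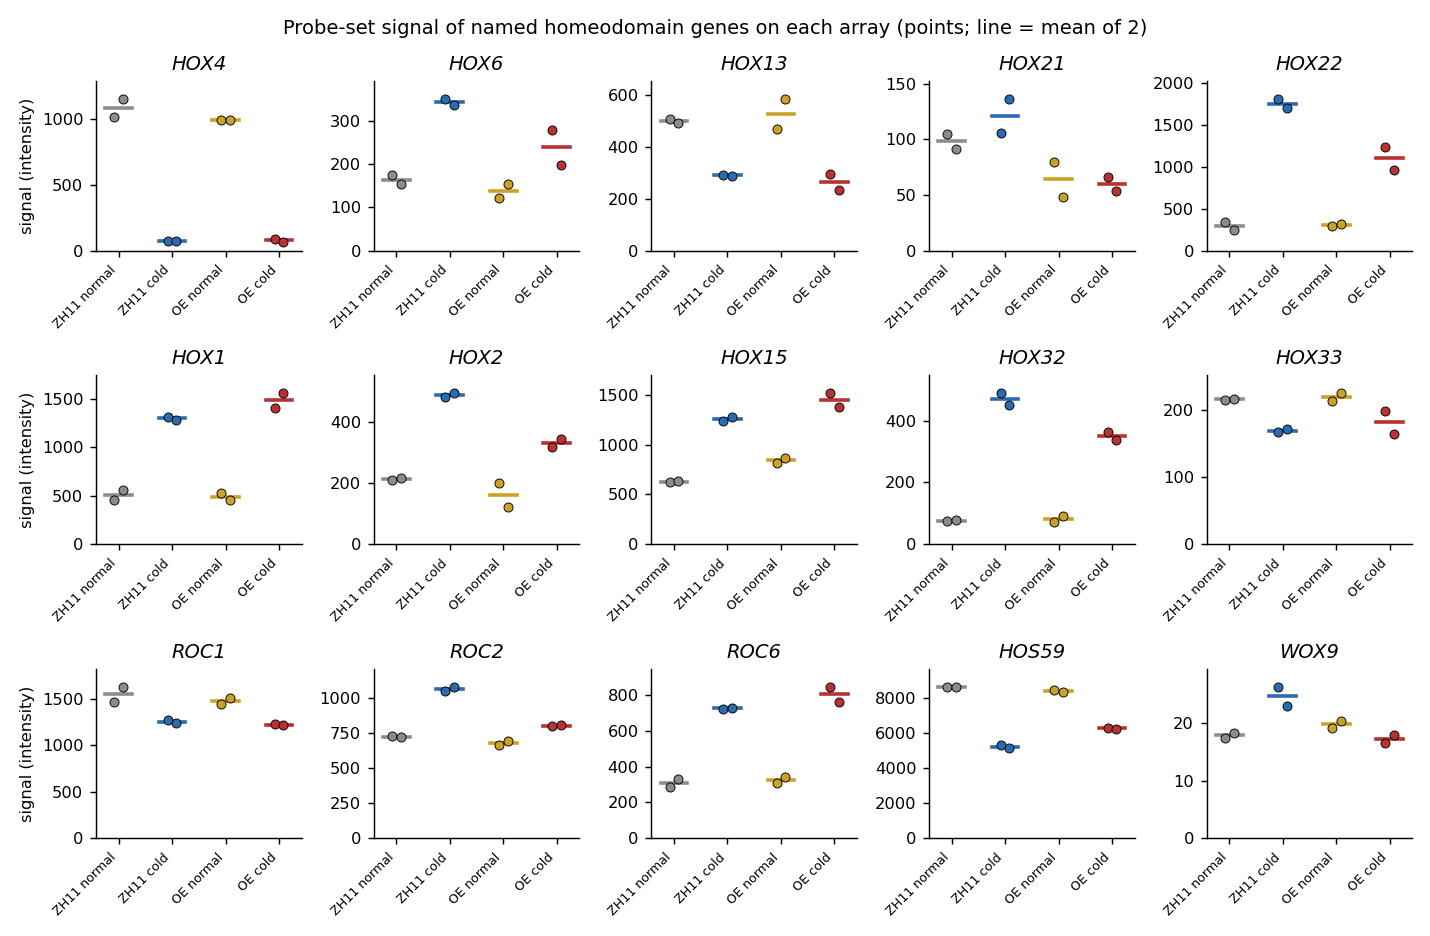
Deposited signal (linear intensity, y axis from 0) on each of the 8 arrays for the 15 named genes, with 2 points and a mean line per group. HOX4 has cold signals of 66.0 to 87.0 in both genotypes, HOX22 and HOX32 are higher after cold with OE cold below ZH11 cold, and HOX15 is higher in OE than in ZH11 before cold.

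Class II genes moved upward or did not pass. Of 8 genes 7 were tested, and the same counts applied in both genotypes: 5 rose, 0 fell and 2 did not pass by limma, with 6 at an unadjusted p under 0.05. HOX1, which in rice has been linked to auxin, vascular development and tiller angle, had signals of 460 and 563 in ZH11 normal, 1312 and 1287 in ZH11 cold, 528 and 455 in OE normal, and 1410 and 1561 in OE cold. The cold arrays were clear of the normal ones, and the rise was 1.33 ± 0.11 in ZH11 (adjusted p = 1.8e-06) and 1.57 ± 0.11 in OE (adjusted p = 6.24e-07). HOX15 rose by 0.98 and 0.77, HOX11 by 0.37 in each genotype and HOX19 by 0.35 and 0.43, the last 2 from low signals. The probe sets that stood for HOX15 (s_at), HOX11 and HOX19 (both x_at) can match other transcripts. The dimmer HOX19 probe sets did not pass in either genotype. HOX7 did not pass, at 0.04 and 0.26.

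HOX2 and HOX28 are direct neighbours in the reference assembly (ASM3414082v1), with 0 protein-coding genes between them. HOX2 had signals of 209 and 217 in ZH11 normal, 482 and 494 in ZH11 cold, 200 and 123 in OE normal, and 317 and 344 in OE cold. It rose by 1.14 ± 0.17 in ZH11 (adjusted p = 0.000153) and by 0.997 ± 0.17 in OE (adjusted p = 0.000435). HOX28, which acts with HOX1 on tiller angle in rice, had signals of 36.1 and 36.0 in ZH11 normal, 25.6 and 22.1 in ZH11 cold, 34.4 and 16.8 in OE normal, and 17.2 and 11.9 in OE cold. It did not pass in either genotype (-0.39, adjusted p = 0.0724, and -0.42, adjusted p = 0.06), so the neighbours did not share a called direction. For both genes, line OE-29 gave the lowest of the 4 normal arrays. The only other close pair among the members, OSH1 and OSH3 with 1 protein-coding gene between them, was too dim to be tested.

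HD-Zip III genes were all tested. In ZH11 3 of 5 rose, 1 fell and 1 did not pass, and in OE 3 rose and 2 did not pass. HOX32, whose overexpression in rice gives narrow, rolled leaves, stood out within the class. Its signals were 74.2 and 79.7 in ZH11 normal, 489 and 449 in ZH11 cold, 71.5 and 91.6 in OE normal, and 362 and 336 in OE cold. The normal groups overlapped, the cold groups did not, and each cold array was far above each normal one. The rise was 2.38 ± 0.12 in ZH11, 5.22-fold (adjusted p = 5.82e-08), and 1.91 ± 0.12 in OE, 3.76-fold (adjusted p = 3.25e-07). HOX9 and HOX10, also known as HB2 and HB1, rose by 0.50 and 0.69 in ZH11 and by 0.40 and 0.46 in OE.

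HOX33, which has been tied to leaf senescence in rice, went the other way from HOX32. Its signals were 215 and 216 in ZH11 normal, 166 and 171 in ZH11 cold, 212 and 225 in OE normal, and 198 and 164 in OE cold. The fall in ZH11 was small, -0.33 ± 0.11 (adjusted p = 0.023), and OE did not pass (-0.26, adjusted p = 0.0671). The wild-type call was lost after quantile normalization (-0.13, adjusted p = 0.262) and without any single ZH11 array (adjusted p = 0.0742 to 0.107), and the OE value passed without OE cold replicate 1 (-0.38, adjusted p = 0.0262). HOX29 did not pass, at 0.20 and 0.15.

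Among epidermal ROC genes, 6 of 8 were tested, and in each genotype 4 rose, 1 fell and 1 did not pass. ROC6 had signals of 287 and 334 in ZH11 normal, 726 and 727 in ZH11 cold, 308 and 342 in OE normal, and 848 and 764 in OE cold. It rose by 1.19 ± 0.10 in ZH11 (adjusted p = 2e-06) and 1.27 ± 0.10 in OE (adjusted p = 1.45e-06), with no overlap between treatments. A second ROC6 probe set was too dim to be tested, at 7.1 to 12.8. ROC2, ROC3 and ROC5 rose by 0.55, 0.64 and 0.38 in ZH11 and by 0.24, 0.47 and 0.22 in OE. ROC5 restrains bulliform cells, the epidermal cells by which rice leaves roll, and ROC3 had signals of at most 30.2. The ROC3 group means were 13.65 and 12.5 before cold and 30.05 and 23.75 after, in ZH11 and OE. It was bright enough to be tested only through its cold arrays, so its values are a description. ROC1, an early marker of the epidermis, was the member that fell, with signals of 1467 and 1632 in ZH11 normal, 1276 and 1238 in ZH11 cold, 1451 and 1516 in OE normal, and 1231 and 1218 in OE cold. The falls were small, -0.30 ± 0.07 (adjusted p = 0.0045) and -0.27 ± 0.07 (adjusted p = 0.00777), and the first was lost without ZH11 normal replicate 2 (adjusted p = 0.056). ROC4 did not pass (-0.08 and -0.31).

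The KNOX classes differed in whether they could be measured. Of the 5 meristem genes of class I, 4 were not tested. OSH1, the gene that maintains the shoot meristem, had signals of 4.4 to 7.3 on the 8 arrays, and OSH3, OSH6 and OSH71 reached at most 22.5, 19.1 and 11.8. OSH43 was tested and did not pass (0.32, adjusted p = 0.056, and 0.01). The probe set tested (s_at) can match other transcripts, and the second OSH43 probe set was too dim to be tested, at 5.9 to 8.3. All 4 genes of class II were tested and called in both genotypes. HOS58 rose by 0.49 and 0.53, HOS66 by 0.33 and 0.35 and OSH45 by 0.28 and 0.41.

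HOS59 was the class II gene that fell. Its signals were 8648 and 8643 in ZH11 normal, 5299 and 5133 in ZH11 cold, 8469 and 8357 in OE normal, and 6298 and 6237 in OE cold. Replicates were close together and all 4 groups were separate. The fall was -0.73 ± 0.05 in ZH11 (adjusted p = 5.9e-07) and -0.42 ± 0.05 in OE (adjusted p = 3.88e-05), and the difference between these, 0.30 ± 0.07, did not pass (adjusted p = 0.0808). Thus 3 members of the class rose and 1 fell in each genotype.

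WOX genes were mostly below the level tested. WOX6, WOX7, WOX10 and WOX11, the last an activator of crown roots, had signals of 4.3 to 11.1 by their brightest probe sets. Among the 3 tested, WOX8 rose in ZH11 (0.37, adjusted p = 0.0127) and did not pass in OE (0.15, adjusted p = 0.289). WOX4, which maintains meristems and vascular stem cells, did not pass in ZH11 (0.13, adjusted p = 0.194) and rose in OE (0.25, adjusted p = 0.0262), at signals of at most 25.7. The WOX4 group means were 17.5 and 17.3 before cold and 20.75 and 23.75 after, in ZH11 and OE. It too was bright enough to be tested only through its cold arrays, so its rise in OE is a description. WOX9, also called QHB and a marker of the quiescent centre of the root, had signals of 17.5 and 18.4 in ZH11 normal, 26.4 and 23.1 in ZH11 cold, 19.2 and 20.5 in OE normal, and 16.6 and 18 in OE cold. These are dim values, below the array medians. WOX9 rose in ZH11 (0.26 ± 0.08, adjusted p = 0.0173) and gave -0.11 in OE (adjusted p = 0.298).

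The untested members besides those named were HOX8, HOX14, HOX17, ROC7 and ROC8, with signals of 5.5 to 12.4. Over all 14 untested genes the signals ran from 4.3 to 28.7, the highest being HOX24 in OE cold. In a fit of every probe set on the array, HOX24 rose by 0.76 in ZH11 (adjusted p = 8.57e-05) and by 0.66 in OE (adjusted p = 0.000278). HOX14 and WOX7 rose and HOX8 fell there in ZH11, by 0.16, 0.13 and -0.18, at signals of 4.3 to 11.9.

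Of the 49 genes 10 had more than 1 probe set, and for 5 of them a second one was bright enough to be tested. For HOX16, the other tested probe set, of the kind able to match related transcripts, rose by 0.94 in ZH11 and 0.75 in OE, more than the brightest. It was also called lower in OE than in ZH11 after cold (-0.32, adjusted p = 0.0445), where the brightest did not pass (-0.22, adjusted p = 0.103). For HOX20, the probe sets disagreed. The brightest did not pass in ZH11, while the other went from 207 and 226 in ZH11 normal to 83.3 and 84.0 in ZH11 cold, and from 189 and 224 to 82.3 and 83.3 in OE, falls of -1.22 and -1.17 (adjusted p = 4.43e-06 and 7.41e-06). The size of the HOX20 response therefore depended on the probe set, and the other one can also match related transcripts. The other HOX10 probe set had group means of 16.4 and 15.4 before cold and 39.65 and 46.75 after, so it was bright enough to be tested only through its cold arrays, and its value of 0.76 in ZH11 is a description. The same holds for 1 of the dim HOX19 probe sets. Neither probe set of HOX7 passed, and the 2 dimmer ones of HOX19 did not pass in ZH11 (0.14 and 0.22) or in OE (0.04 and 0.18).

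**Figure D3:**
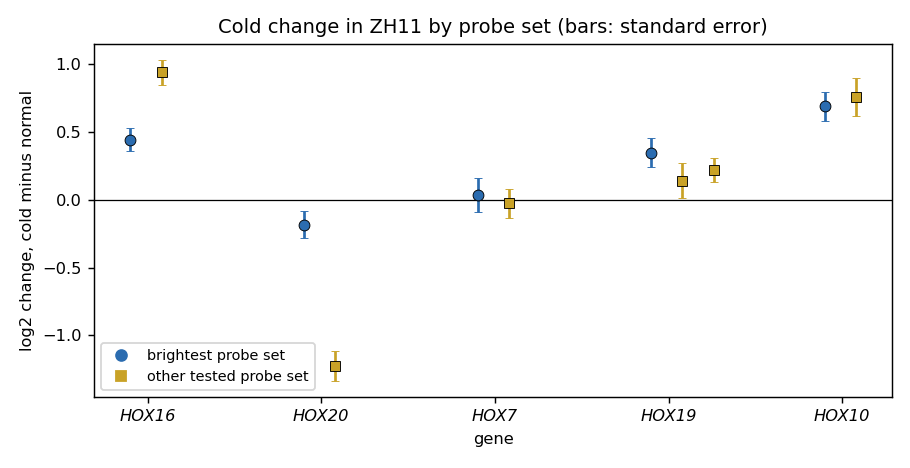
Log2 change on the scale of signal + 16, cold minus normal in ZH11, for the 5 genes with more than 1 tested probe set, with standard errors (circles, brightest probe set; squares, others). The values are close for HOX7 and far apart for HOX20, at -0.18 and -1.22.

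The 2 genotypes share no arrays in their cold comparisons. Among the tested members 20 were called higher in both, 4 lower in both and 0 in opposite directions. These are 57.1%, 11.4% and 0% of them, beside 22.4%, 38.3% and 0.0946% of all tested genes, and 14.3% of the members were called in 1 genotype, beside 16.7%. Of the rest, 2 rose in ZH11 and did not pass in OE (WOX8 and WOX9), 1 fell in ZH11 and did not pass in OE (HOX33), 1 rose in OE alone (WOX4), 1 fell in OE alone (HOX20) and 6 passed in neither. Across the 35 genes the log2 changes had a Pearson correlation of 0.978, beside 0.953 across all tested genes. Both are descriptions over genes that share arrays within each genotype, and HOX4 lay far from the other members. None of these differences between genotypes passed. In the interaction limma called 0 of 35 members, beside 1.53% of all tested genes (1.03% higher and 0.498% lower), and 5 had an unadjusted p under 0.05. HOX22 had the largest value, -0.71 ± 0.20 (adjusted p = 0.15), followed by HOX32 at -0.47 ± 0.17 (adjusted p = 0.244) and WOX9 at -0.37 ± 0.12 (adjusted p = 0.181).

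Before cold, 1 of 35 members was called between OE and ZH11, beside 1.51% of all tested genes (0.959% higher and 0.549% lower). This was the class II gene HOX15, with signals of 624 and 631 in ZH11 and 814 and 869 in OE, so that both lines lay above both wild-type arrays. The difference was 0.41 ± 0.07 (adjusted p = 0.0279). After cold HOX15 had 1237 and 1277 in ZH11 and 1518 and 1382 in OE, a difference of 0.20 that did not pass (adjusted p = 0.101). Its probe set (s_at) can match several transcripts. The call was lost without either ZH11 normal array (adjusted p = 0.199 and 0.145), without either ZH11 cold array (0.076 and 0.0765) and without OE normal replicate 2 (0.134), and the count over members was 0 in those 5 fits and 4 without OE normal replicate 1. Without a trend in the spread, 0 members were called as well.

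After cold, 6 of 35 members were called between the genotypes, 5 lower in OE and 1 higher. Over all tested genes 17.9% were called, 6.51% lower and 11.4% higher, beside 14.3% and 2.86% of the tested members. The lower ones were HOX21 and HOX22 of class I, HOX32 of class III, ROC2 and WOX9, and the higher one was HOS59. The median difference was -0.13 over the tested members and 0.06 over all tested genes. Another 9 members had an unadjusted p under 0.05 without passing, among them HOX6 (-0.51, adjusted p = 0.0574) and HOX2 (-0.54, adjusted p = 0.0575). The count moved when single arrays were left out, and the count over all tested genes moved in the same direction. Each such fit leaves 1 array in a group.

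**Figure D4:**
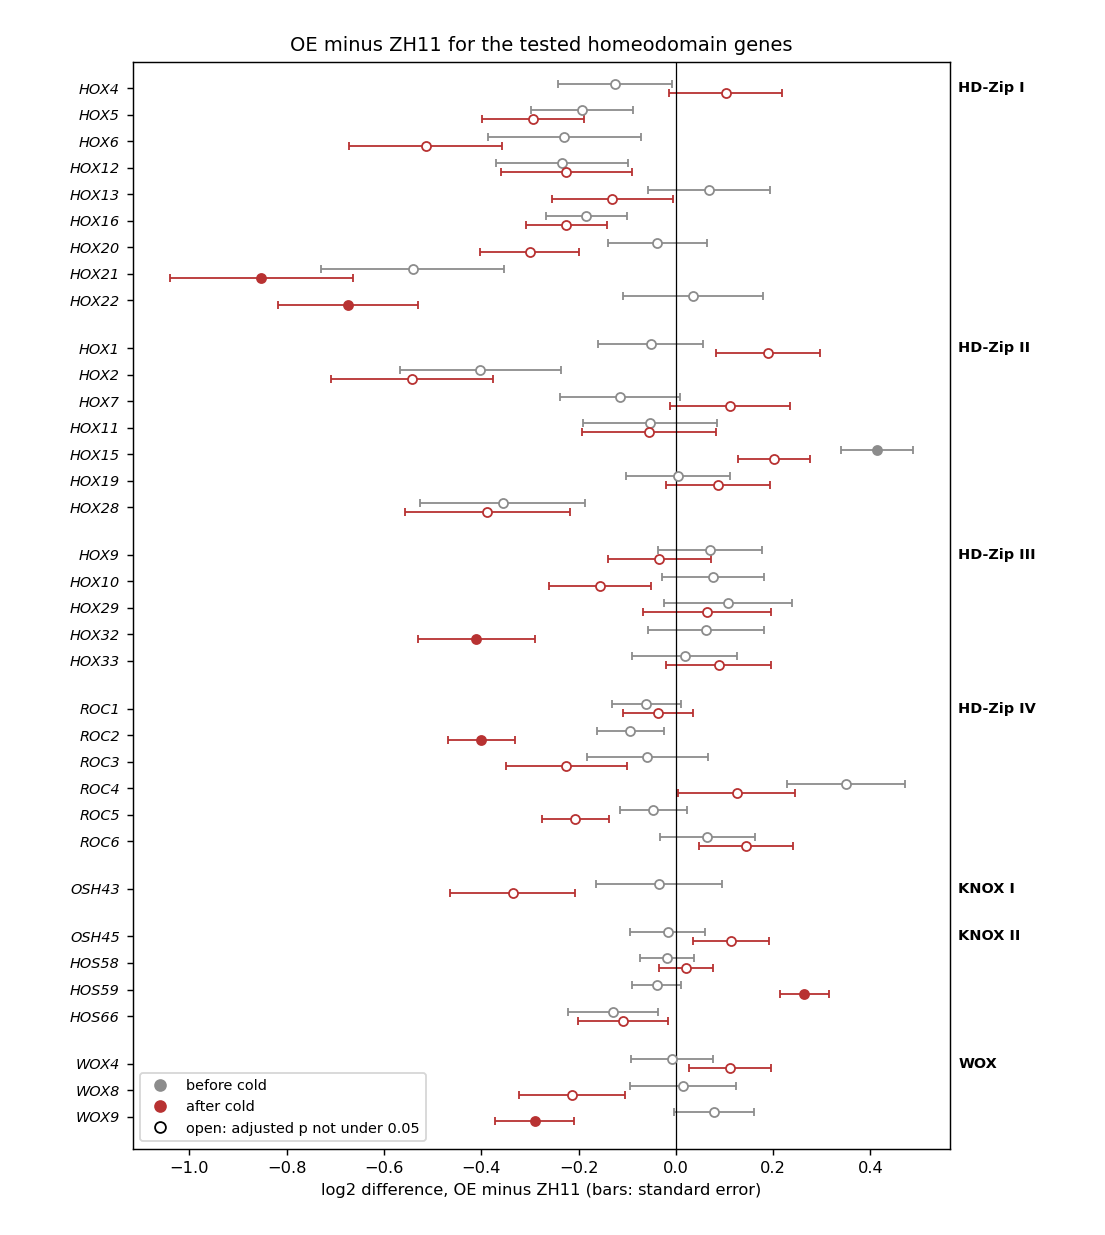
Log2 difference on the scale of signal + 16, OE minus ZH11, for the 35 tested homeodomain genes before cold (grey) and after cold (red), with standard errors. Filled points passed an adjusted p of 0.05: HOX15 before cold, and HOX21, HOX22, HOX32, ROC2, WOX9 (lower in OE) and HOS59 (higher) after cold.

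HOX21 had the largest of these differences on this scale, -0.85 ± 0.19 (adjusted p = 0.0169), though with 64 added HOX22 had the larger (-0.65 against -0.58). Its signals were 105 and 91.8 in ZH11 normal, 106 and 136 in ZH11 cold, 79.8 and 48.4 in OE normal, and 65.8 and 53.5 in OE cold. Both OE groups lay below both ZH11 groups, though the difference before cold did not pass (-0.54, adjusted p = 0.326). The only HOX21 probe set (x_at) is of the kind able to match other transcripts as well. HOX22 differed by -0.67 ± 0.14 after cold (adjusted p = 0.0143) and by 0.04 before. HOX32 differed by -0.41 ± 0.12 (adjusted p = 0.0485) and by 0.06 before. For these last 2 the genotypes overlapped before cold and were separate after it, while their interaction values, given above, did not pass.

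ROC2 had signals of 730 and 721 in ZH11 normal, 1054 and 1082 in ZH11 cold, 663 and 695 in OE normal, and 804 and 806 in OE cold. After cold it was lower in OE by -0.40 ± 0.07 (adjusted p = 0.00515), and the interaction was -0.31 ± 0.10 (adjusted p = 0.186). HOS59, which fell with cold, was higher in OE cold than in ZH11 cold by 0.26 ± 0.05 (adjusted p = 0.00868). WOX9 differed by -0.29 ± 0.08 (adjusted p = 0.0426) at dim signals, a value that moved to -0.49 with 1 added before the logarithm and -0.13 with 64. Its call was lost without the filter (adjusted p = 0.0632), after quantile normalization (0.0564), after median centring (0.0541), without a trend (0.0552) and with the replicate number as a block (0.0592). HOS59 lost its call without a trend (adjusted p = 0.0572). Without ZH11 cold replicate 1 or 2, adjusted p was 0.0505 and 0.133 for HOX21, 0.115 and 0.0726 for HOX22, 0.269 and 0.138 for HOX32, 0.0502 and 0.0592 for ROC2, 0.0532 and 0.0785 for HOS59, and 0.229 and 0.0822 for WOX9. HOX32 also lost its call with a pseudocount of 1 (adjusted p = 0.0604), without the filter (0.0609), after median centring (0.0605) and with the replicate number as a block (0.0674).

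Genes that work beside these factors were followed in 4 lists. Of 19 genes of gibberellin metabolism and signalling 15 were tested, and 5 rose and 5 fell in ZH11, 5 rose and 2 fell in OE. Of all tested genes 25.8% rose and 45.2% fell in ZH11, and 25.6% and 41.7% in OE. Among those that rose in both were SLR1, the DELLA repressor, by 1.07 and 1.10, the receptor gene GID1 by 0.83 and 0.78, its F-box partner GID2 by 0.42 and 0.47, and GA20OX3, a late step of synthesis, by 0.89 and 0.86. KAO, an earlier step, rose in OE (0.37, adjusted p = 0.0305) and did not pass in ZH11 (0.21), and the DELLA-like gene SLRL1 passed in neither (0.0030 and -0.06). GA20OX2 rose in ZH11 (0.39) and did not pass in OE (0.29). CPS1 and KS1, which make the gibberellin precursor, fell in ZH11 by -1.05 and -0.37. KS5, 1 KO1 entry and CPS2 also fell in ZH11, by -0.61, -0.63 and -0.55. CPS2 fell in OE as well, by -0.61. CPS1 fell in OE by -0.30, and its interaction of 0.75 did not pass (adjusted p = 0.0526). After cold 4 of the 15 tested genes were called higher in OE and 0 lower, beside 11.4% and 6.51% of all tested genes. The differences were 1.16 for 1 KO1 entry, 0.82 for CPS1, 0.76 for CPS2 and 0.34 for KS1. The other KO1 entry did not pass (0.18). The list also caught relatives such as CPS2 that act in diterpenoid defence. Its median was -0.05 in ZH11 and -0.03 in OE, beside -0.18 and -0.14 for all tested genes.

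Of 13 genes for cytokinin activation and breakdown 12 were tested, and 3 rose and 7 fell in ZH11 and 3 rose and 8 fell in OE, with medians of -0.45 in each genotype beside -0.18 and -0.14 over all tested genes. LOG, which releases active cytokinin in the meristem, rose by 0.82 and 1.02 and its relative LOGL5 by 1.89 and 1.72, while LOGL10 fell by -1.41 and -1.20 and the cytokinin oxidase gene CKX5 by -1.07 and -0.87. Among 13 genes of leaf and meristem development 9 were tested, with 5 higher and 2 lower in ZH11 and 4 and 1 in OE. Their medians were 0.27 and 0.26, beside -0.18 and -0.14 over all tested genes. Of all tested genes 25.8% were higher and 45.2% lower in ZH11, and 25.6% and 41.7% in OE. YAB5 rose by 1.22 and 0.90 and FON1, a receptor kinase that limits floral meristem size, fell by -0.91 and -0.75. YAB2 was lower in OE after cold (-0.40, adjusted p = 0.0264). Of 4 zinc-finger homeodomain genes outside the naming rule 2 were tested. ZHD1 rose from a mean signal of 20.5 to 115 in ZH11 and from 19.9 to 120 in OE, by 1.84 and 1.93, and ZHD10 did not pass (-0.25 and -0.23).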

How the data were processed

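Biotin-labelled cRNA was hybridised to 1-colour Affymetrix arrays, per the labels. The deposited values are probe-set signals (intensity, linear scale); how the authors summarised and normalized them is not given in the labels, and no further scaling was applied. Names came from the array annotation and from synonyms in the RefSeq gene table (assembly ASM3414082v1), which matched all 49 genes; 5 further genes of the naming rule (HOX3, ROC9, WOX5, OSH10 and OSH15) had no probe set annotated to that gene alone, and HOX1A was left out for its letter suffix. No sequence is shown, as none was in the tables used.

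Values were taken to log2 after adding 16 and fitted in 1 group-means model over 8 arrays (limma 3.58.1 in R 4.3.3, lmFit and eBayes with a trend, 4 residual degrees of freedom, two-sided, 34313 probe sets tested), for 5 comparisons, and the procedure was tested on simulated data. The number of arrays limits the precision. Members and lists were chosen with earlier results of these data known. Named genes were HOX4, the 6 largest called changes per direction for cold in ZH11 (5 falls existed) and every member called between genotypes or in the interaction; others are summarised. From the lists, 2 haemoglobin genes matched by an older synonym were left out. Replicate numbers mark the same line in both OE groups per the labels (correlation of replicate differences before and after cold 0.128); in ZH11 they are only numbers (-0.0202). Alternatives were other pseudocounts, filters and scalings, no trend, replicate blocks, every probe set counted, and leaving out each array.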

Additional observations from a re-analysis of the deposited data

How the results depend on the processing

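In every alternative tried, the members called for cold numbered 21 to 30 in ZH11 (27 as reported) and 20 to 29 in OE (26), and the interaction called 0. Leaving out single arrays gave 21 to 28, 20 to 28 and 0 for these. Before cold, the count of 1 became 0 without a trend and ran from 0 to 4 when single arrays were left out. After cold, the count of 6 ran from 0 to 12 when single arrays were left out and from 4 to 9 under the other alternatives. With the line as a replicate block within OE the counts were 28 for cold in ZH11, 28 for cold in OE, 1 before cold, 9 after cold and 0 for the interaction, and no named call changed. With the replicate number as a block over all arrays they were 28, 27, 1, 4 and 0, and HOX32 and WOX9 were not called after cold (adjusted p = 0.0674 and 0.0592). HOX4 reversed after cold, where it did not pass, to -0.0619 without OE cold replicate 1, and its range without single arrays was -0.0619 to 0.267. Of 543 alternatives for the named genes, 496 kept direction and call, 45 lost the call, 1 gained it and 1 reversed. The cold changes of HOX4 ran from -3.94 to -3.10 in ZH11 and from -3.69 to -2.91 in OE. An array outside a comparison acts on it only through the shared spread and the adjustment of p. Without ZH11 cold replicate 1, HOX15 before cold stayed at 0.4135, and its standard error went from 0.0744 to 0.0824. The cause of the other losses was not tested. The 2 arrays a group and dim signals limit what can be said of the WOX and class I KNOX genes.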

Other observations

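The 2 overexpressing lines were farther apart than the wild-type replicates for several members before cold. Line OE-29 was lower than line OE-24 for HOX2 (123 and 200), HOX21 (48.4 and 79.8), HOX28 (16.8 and 34.4) and HOX5 (853 and 1066), and higher for HOX13 (584 and 469), HOX9 (649 and 514) and HOX10 (492 and 393). The ZH11 normal arrays gave 209 and 217 for HOX2, 105 and 91.8 for HOX21, 36.1 and 36.0 for HOX28 and 1074 and 1112 for HOX5, and 506 and 491, 532 and 568, and 419 and 413 for HOX13, HOX9 and HOX10. These genes were picked after their values were seen, 1 array stands for each line and treatment, and no test was made. After cold the order of the lines was the same for HOX21 (65.8 in line OE-24 and 53.5 in line OE-29), HOX28 (17.2 and 11.9), HOX5 (1420 and 1257) and HOX9 (735 and 801), and the opposite for HOX2 (317 and 344), HOX13 (295 and 235) and HOX10 (639 and 582).

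Of 6 root markers 4 were tested. SCR1 rose with cold by 1.72 in ZH11 and 1.21 in OE and was lower in OE after cold (-0.40, adjusted p = 0.0443). NRAMP5 fell in both (adjusted p = 8.27e-05 and 2.96e-05) and was also lower in OE after cold (-0.61, adjusted p = 0.0169). LSI1 rose in OE (0.45, adjusted p = 0.0436) and did not pass in ZH11 (0.21), and SHR1 passed in neither (-0.09 and -0.06).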
